A study of Mus musculus with 6 samples.

Results

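Chemokines are small secreted proteins that direct the movement of leukocytes, and their receptors are G protein-coupled receptors of the cells that respond. The members described here are the 51 protein-coding genes of the 56350 gene IDs in the table whose symbol is that of a chemokine ligand (including Ppbp and Pf4) or a chemokine receptor and that had at least 10 counts summed over the 6 libraries. They are 30 ligands and 21 receptors, of which 4 encode atypical receptors. A further 18 family genes had fewer than 10 counts, 9 of them none, and are not members.

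Polyadenylated RNA of mouse liver was sequenced in 3 wild-type (WT) libraries and in 3 libraries from mice with a hepatocyte-specific knockout of Atg14 (HepKO), a gene whose product starts autophagosome formation. The knockout is aimed at hepatocytes, so the other cells of the liver are meant to keep the gene. The sources used here do not give age, sex, strain, Cre driver or time of collection, and the labels do not say whether each library is a separate animal, so a p-value measures only the spread between these libraries, which may be technical in part. Libraries of a group differed from each other well beyond counting error, with a chi-square of 24.2 to 117 times its degrees of freedom. In bulk tissue, more cells of a type and more RNA per cell cannot be told apart.

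The family falls into classes that act differently in tissue. CXC ligands with the ELR motif draw neutrophils through CXCR2, interferon-induced CXC ligands draw T and NK cells through CXCR3, and many CC ligands draw monocytes and macrophages through receptors such as CCR1 and CCR2. In liver, CCL2 and CCR2 are known for the entry of blood monocytes during injury, CXCL16 for the patrol of NKT cells that carry CXCR6, and CXCL12 for constant expression by stromal and vascular cells. Atypical receptors bind chemokines without coupling to G proteins and clear or transport them.

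Total counts were 33145684 to 48951937 per library. Atg14 itself had 20.9, 22.2 and 21 CPM (counts relative to library size) in WT and 5.66, 8.45 and 7.95 CPM in HepKO (log2 fold change -1.54 ± 0.16, SE, FDR 4.69e-04). All CPM values except the filter level are scaled by the trimmed mean of M-values (TMM). A gene was called when the adjusted p (FDR) of the edgeR quasi-likelihood test over 16051 genes was under 0.05. Over all genes, the share called was 38.2%, with 19.5% higher in HepKO and 18.7% lower. Under plain library totals the median log2 fold change of all genes was 0.52 instead of 0.01, and 52.2% were called, 7442 genes (46.4%) higher and 937 lower against 3125 and 3006 under TMM, so each fold below is relative to the TMM scaling. HepKO replicate 1 stood apart by Xist, the RNA of the silenced X chromosome, at 523 CPM against 0.0676 to 0.49 CPM in the other 5 libraries. The HepKO libraries may therefore differ in sex, and the part of this in the folds was not tested. Hepatocyte markers defined the tissue in both groups, with a summed level over 8 genes of 112521 to 133333 CPM in WT and 43616 to 55126 CPM in HepKO.

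The control regions of some ligands that rose, and of the ligand that fell, are shown first. They are the 250 bases before the RefSeq start site on GRCm38.p6, on the strand of the gene, from the start-distal to the start-proximal end. Capitals mark matches to 3 motifs searched on both strands: the kappaB consensus bound by NF-kB, the core of the interferon response element (GAAA, any 2 bases, GAAA) and the AP-1 site TGANTCA. The genes are Cxcl10, which had a match to each motif, Cxcl1 and Cxcl2, neutrophil attractants that lie side by side, Ccl20, which had no count in WT, Ccl9, the ligand with the highest level per length in HepKO, and Cxcl12, the ligand that fell.
Cxcl10 (chr5:92348890-92349139, minus strand): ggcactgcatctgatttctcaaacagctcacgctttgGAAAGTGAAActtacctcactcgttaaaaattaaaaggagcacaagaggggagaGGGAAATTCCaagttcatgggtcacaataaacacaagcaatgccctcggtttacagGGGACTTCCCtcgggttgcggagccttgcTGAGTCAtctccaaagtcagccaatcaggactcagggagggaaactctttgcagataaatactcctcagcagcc
Cxcl1 (chr5:90890995-90891244, plus strand): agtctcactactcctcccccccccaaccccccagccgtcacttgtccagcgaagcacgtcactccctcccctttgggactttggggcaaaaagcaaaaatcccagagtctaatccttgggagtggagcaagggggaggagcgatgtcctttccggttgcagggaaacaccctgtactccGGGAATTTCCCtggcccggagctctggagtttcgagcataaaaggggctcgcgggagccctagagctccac
Cxcl2 (chr5:90903649-90903898, plus strand): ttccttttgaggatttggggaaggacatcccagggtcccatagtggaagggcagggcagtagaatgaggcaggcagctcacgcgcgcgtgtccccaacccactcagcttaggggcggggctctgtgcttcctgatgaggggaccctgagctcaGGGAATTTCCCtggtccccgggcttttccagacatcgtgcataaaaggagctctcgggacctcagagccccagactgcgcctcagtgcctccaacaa
Ccl20 (chr1:83116516-83116765, plus strand): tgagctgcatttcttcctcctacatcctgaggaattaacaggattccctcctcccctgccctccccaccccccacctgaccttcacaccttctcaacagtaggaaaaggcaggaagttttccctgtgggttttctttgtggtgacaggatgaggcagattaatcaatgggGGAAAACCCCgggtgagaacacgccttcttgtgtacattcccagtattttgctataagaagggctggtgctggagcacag
Ccl9 (chr11:83578637-83578886, minus strand): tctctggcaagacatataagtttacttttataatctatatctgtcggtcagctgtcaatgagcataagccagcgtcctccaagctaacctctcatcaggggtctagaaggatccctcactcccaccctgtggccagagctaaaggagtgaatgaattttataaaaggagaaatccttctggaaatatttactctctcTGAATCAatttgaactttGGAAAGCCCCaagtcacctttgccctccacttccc
Cxcl12 (chr6:117168285-117168534, plus strand): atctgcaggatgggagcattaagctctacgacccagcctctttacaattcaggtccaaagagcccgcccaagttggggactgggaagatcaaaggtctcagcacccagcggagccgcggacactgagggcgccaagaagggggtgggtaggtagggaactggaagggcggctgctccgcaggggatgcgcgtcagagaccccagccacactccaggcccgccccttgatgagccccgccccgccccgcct

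Windows were matched by symbol for 40 of the 51 members. A kappaB match was found in 5 of the 12 called-higher ligands with a window, namely Cxcl10, Cxcl1, Cxcl2, Ccl20 and Ccl9. These are the rising ligands printed above. The other called-higher ligands with a window, Ccl3, Ccl6, Ccl28, Cx3cl1, Cxcl9, Cxcl14 and Pf4, had no kappaB match. Ccl2, Ccl4, Ccl5, Ccl7 and Cxcl16, also called higher, had no window. The same motif occurred in 8 of 40 members (20%), in 0 of the 4 called receptors with a window, and in 4.46% of 27025 genes. The other members with a match were Ackr2 and Ccr3, not called, and Ccr6, not tested. In Cxcl1 and Cxcl2 the capitals hold 2 overlapping kappaB matches, 1 on each strand. The interferon core occurred in Cxcl10 and Cxcl14 alone among the 40, against 3.46% of all genes, and the AP-1 site in 6 of 40 (15%) against 7.82%. The Cxcl12 window held none of the 3 motifs. A match is a description of letters in this window, and binding was not measured.

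Most ligands were higher in HepKO. Of 30 ligands, 17 were called higher, 1 was called lower (Cxcl12, not called under library totals), 6 were tested and not called, and 6 had too few counts to be tested. Among the 21 receptors 5 were called higher and 0 lower, 10 were not called and 6 were not tested. No receptor was called lower under any of the other tools, scalings or filters run. At an unadjusted p under 0.05 the count lower was 0 as well. Without HepKO replicate 1, which stood apart by Xist, 16 ligands and 4 receptors were called higher, beside 2691 of all genes. Under library totals 19 ligands and 10 receptors were called higher, beside 46.4% of all genes. With DESeq2 8 receptors were called higher, beside 3471 of all genes. In the main fit 3125 of all genes were called higher. The share of tested ligands called higher was 70.8% and that of tested receptors 33.3%, against 19.5% of all genes. The median log2 fold change was 2.01 for tested ligands and 1.76 for tested receptors, and whether the classes differ was not tested. Receptors were the scarcer class, with a median level in WT of 0.142 CPM per kb of exon against 0.449 CPM per kb for ligands. The receptors that were not called had standard errors of 0.49 to 1.14 on the log2 scale.

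A gene could enter the test through its HepKO libraries alone, which favours genes that are higher there. Of the 24 tested ligands, 15 reached the filter level of 0.254 CPM in all 3 WT libraries, of which 10 were called higher and 1 lower. This level was taken on plain library totals, without TMM scaling. For receptors, 6 of 15 reached it, with 3 called higher. Among all genes that reached it, 18.2% of 13591 were called higher. Of the members called higher, 12 ligands and 4 receptors rose at least 4-fold, as did 6.18% of all genes. All 3 HepKO libraries lay above all 3 WT libraries for 28 of the 39 tested members, 18 ligands and 10 receptors, and this held for 27.1% of all genes tested. With the untested members included it was 32 of 51, and over all 56350 gene IDs, of which 40299 were not tested, it was 4961. The members this adds, Ccl8, Ccl11, Ccl12 and Cxcl5, had 0 to 2 counts in WT. They met the count minimum through their HepKO counts. Among the 24 tested ligands 3 lay below without overlap, as did 4237 of the 16051 genes tested. Counting either direction, 53.5% of all genes tested did not overlap. The plot of levels by library shows these members as separated colours.

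**Figure D1:**
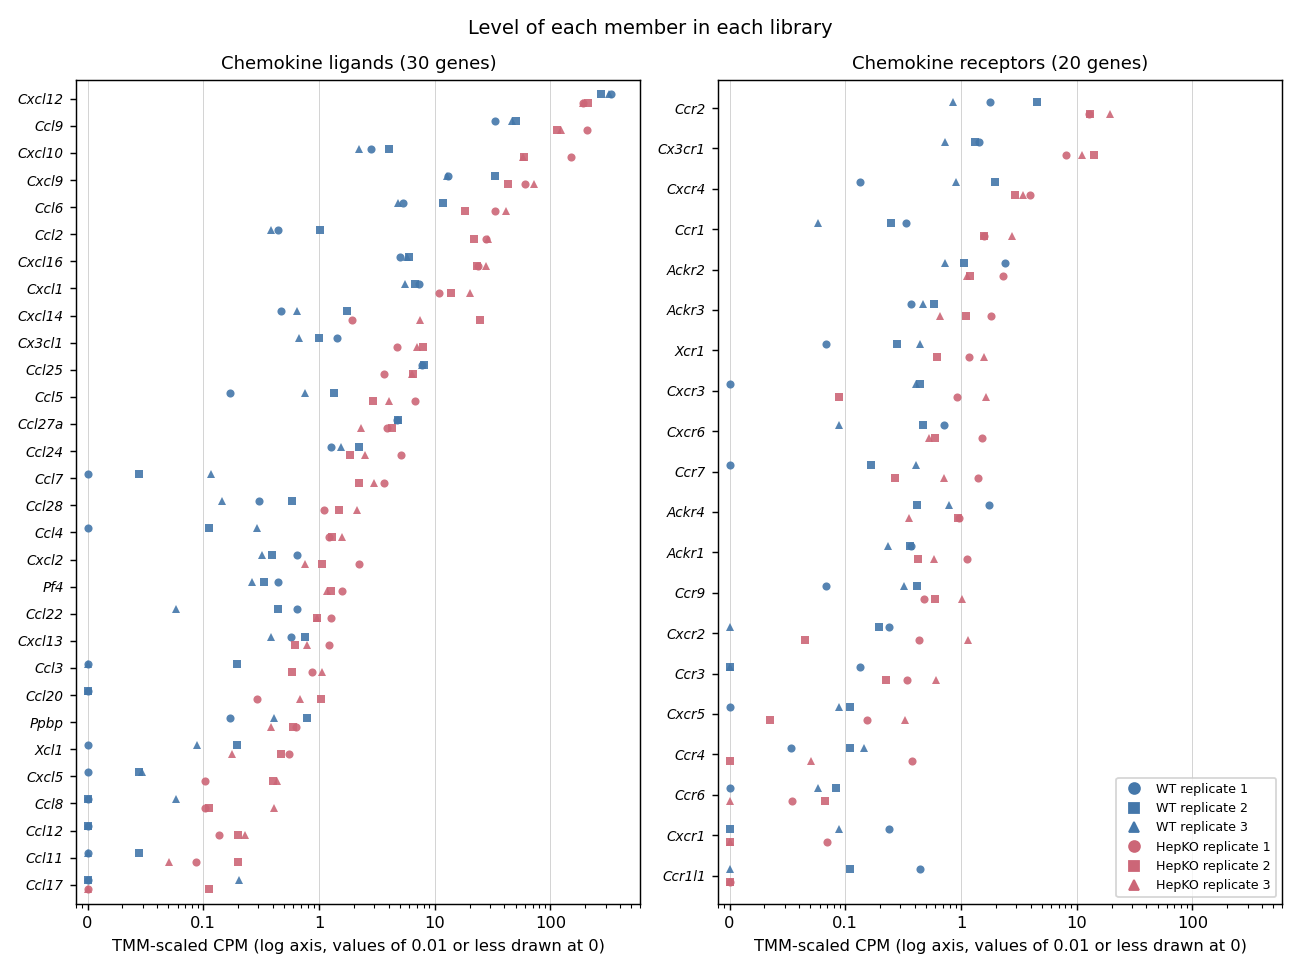
Level of 50 members in each of the 6 libraries, in TMM-scaled CPM on a log axis, with 30 ligands on the left and 20 receptors on the right, ordered by the HepKO mean. Blue points are WT and red points HepKO, and the shape gives the replicate. Values should be compared along a row because CPM is not divided by gene length. The HepKO points lie right of all WT points in 22 ligand rows and 9 receptor rows. Over all 56350 gene IDs, of which 40299 were not tested, all HepKO values exceeded all WT values for 4961. Over the 16051 genes tested this held for 27.1%. The HepKO points lie left of all WT points in 3 ligand rows (Cxcl12, Ccl25 and Ccl27a). Under library totals the log2 fold changes of these 3 genes are -0.11, -0.01 and 0.05.

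The CCR2 ligands showed the highest fitted folds among ligands with counts in both groups. Ccl2 (ENSMUSG00000035385.5, chromosome 11, 82035571 to 82037453, plus strand), the main attractant of monocytes, had 0.439, 1.03 and 0.381 CPM in WT replicates 1 to 3 and 28, 21.8 and 28.7 CPM in HepKO replicates 1 to 3. The HepKO libraries were alike and far above WT, a rise of 41.6-fold (log2 fold change 5.38 ± 0.34, FDR 9.70e-05). Ccl7, its neighbour on the chromosome and a ligand of the same receptor, had 0, 0.0279 and 0.117 CPM in WT against 3.65, 2.21 and 2.97 CPM in HepKO. Its rise was 55.7-fold (log2 fold change 5.80 ± 0.69, FDR 6.93e-04) and rested on 5 WT counts. Without WT replicate 3, which held 4 of them, the ratio was 197 (95% counting interval 35.2 to 7798), and without WT replicate 2 the log2 fold change of Ccl2 was 6.02. Ccl12, the third ligand of this receptor, had 0 counts in WT and 8, 9 and 9 counts in HepKO. That is at least 6.07-fold higher if the WT group is set to the floor of 3 counts in all, in a gene with too few counts to be tested under the filter. Intervals and floors cover counting error only.

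The receptor of these ligands rose as well. Ccr2, carried by inflammatory monocytes, had 1.79, 4.54 and 0.849 CPM in WT against 12.8, 13.1 and 19.6 CPM in HepKO. The groups did not overlap, although WT replicate 2 was the highest of its group (log2 fold change 2.66 ± 0.52, FDR 0.0056). Without WT replicate 2 the log2 fold change was 3.57.

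The 5 macrophage-type CC ligands that lie in 1 gene cluster all rose. Ccl9, a macrophage-derived attractant of rodents, was the most abundant of them, with 33, 50.8 and 46.7 CPM in WT and 206, 113 and 123 CPM in HepKO (log2 fold change 1.76 ± 0.26, FDR 0.00161). Ccl6, a related ligand that lies next to it, had 5.3, 11.9 and 4.8 CPM in WT against 33.4, 18.2 and 41.7 CPM in HepKO (log2 fold change 2.08 ± 0.41, FDR 0.0058). For both genes the lowest HepKO library was replicate 2, and it still exceeded every WT library. Ccl5, the T cell and macrophage product RANTES, rose from 0.169, 1.34 and 0.761 CPM to 6.78, 2.9 and 4.01 CPM (log2 fold change 2.57 ± 0.62, FDR 0.0137), or by 3.28 on the log2 scale without WT replicate 2. Ccl3 and Ccl4, the macrophage inflammatory proteins 1-alpha and 1-beta, were near the detection limit in WT. Ccl3 had 0, 7 and 0 WT counts and 51, 26 and 42 HepKO counts (log2 fold change 3.56 ± 1.03, FDR 0.0275). Its call was lost in each of 5 fits without 1 library other than WT replicate 2 (FDR 0.0506 to 0.0784). Without WT replicate 2 it was at least 17.8-fold higher, against the floor of 3 counts. Ccl4 had 0, 4 and 10 WT counts and 71, 58 and 62 HepKO counts (log2 fold change 3.28 ± 0.80, FDR 0.0139), and a log2 fold change of 4.46 without WT replicate 3.

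Ccr1, a receptor of several of these ligands, was higher as well. Ccr1, found on monocytes and neutrophils, had 0.338, 0.251 and 0.0585 CPM in WT against 1.58, 1.58 and 2.74 CPM in HepKO (log2 fold change 3.19 ± 0.60, FDR 0.00459). HepKO replicate 3 was the highest library, as for Ccr2. Ccr1l1, a Ccr1-like gene between Ccr1 and Ccr3, went the other way in raw counts, with 13, 4 and 0 counts in WT and 0 in all HepKO libraries. Its groups overlapped, the gene was too low to be tested under the filter, and without a filter it was not called (FDR 0.0537).

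Of the interferon-induced ligands of CXCR3, Cxcl10 and Cxcl9 rose and Cxcl11 was not called. Cxcl10 (ENSMUSG00000034855.13, chromosome 5, 92346638 to 92348889, minus strand) had 2.84, 4.01 and 2.22 CPM in WT against 151, 58.8 and 57.9 CPM in HepKO, a rise of 29.4-fold (log2 fold change 4.88 ± 0.46, FDR 2.94e-04). HepKO replicate 1 was far above the other two, and with that library left out the value was 4.26 on the log2 scale. Cxcl9, its neighbour and a ligand of the same receptor, rose from 12.9, 33.5 and 12.7 CPM to 60.5, 43.1 and 72.5 CPM (log2 fold change 1.57 ± 0.39, FDR 0.0146). Its call was lost without WT replicate 3 (FDR 0.0519) and without HepKO replicate 3 (FDR 0.0503), and without WT replicate 2 the log2 fold change was 2.22. Cxcl11, annotated as a polymorphic pseudogene and so not a member, had 4.32, 5.88 and 4.92 CPM in WT and overlapped with 13.5, 5.26 and 5.39 CPM in HepKO (log2 fold change 0.68 ± 0.38, FDR 0.192). HepKO replicate 1 was the highest library for Cxcl10 and Cxcl11. Pf4, platelet factor 4, had 0.439, 0.334 and 0.263 CPM in WT against 1.57, 1.27 and 1.17 CPM in HepKO (log2 fold change 1.95 ± 0.41, FDR 0.00785). The summed level of 8 platelet markers overlapped, at 2.17 to 4.05 CPM in WT and 2.62 to 2.83 CPM in HepKO, with Treml1 at 0 in all libraries. Of the 2 that were tested, Nfe2 was called higher (log2 fold change 2.07, FDR 0.0475) and Itga2b was not called, with all HepKO libraries below WT (-0.57, FDR 0.213). Their part in the result for Pf4 was not tested. Ppbp, the other platelet chemokine, was not called (log2 fold change 0.24 ± 0.61, FDR 0.785). The receptor Cxcr3 was not called (0, 0.446 and 0.41 CPM in WT and 0.93, 0.0892 and 1.65 CPM in HepKO, log2 fold change 1.60 ± 1.14, FDR 0.304), and its libraries overlapped.

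**Figure D2:**
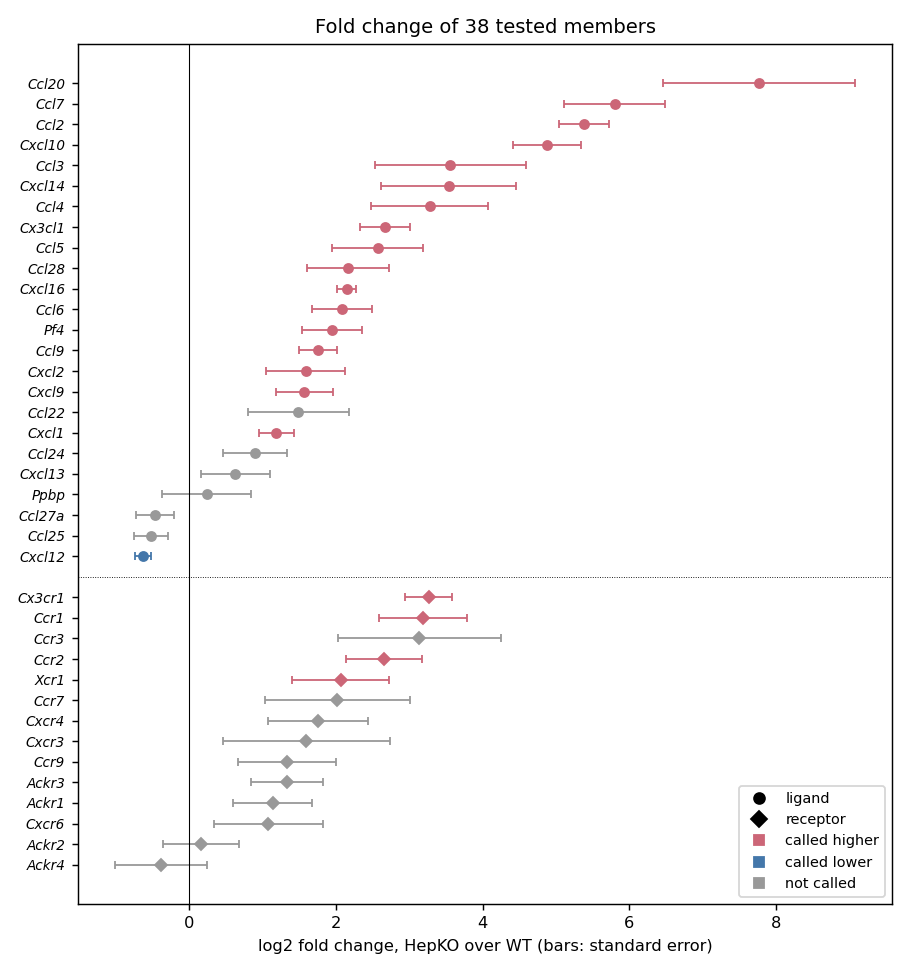
Log2 fold change (HepKO over WT, horizontal axis) of 38 tested members under TMM scaling, with bars of 1 standard error, ligands as circles above the dotted line and receptors as diamonds below it. Red marks the 21 drawn members called higher, blue Cxcl12, the member called lower (not called under library totals), and grey the 16 not called; the wide bars belong to genes with few counts, and the value of Ccl20 depends on a prior count because WT had none.

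Of the neutrophil-attracting ELR ligands, Cxcl1 and Cxcl2 were called higher. Cxcl1, the major ELR chemokine of mouse liver, had 7.3, 6.77 and 5.56 CPM in WT against 10.8, 13.8 and 20.3 CPM in HepKO (log2 fold change 1.19 ± 0.24, FDR 0.00648). Cxcl2 had 0.642, 0.39 and 0.322 CPM in WT against 2.22, 1.07 and 0.762 CPM in HepKO, so the groups stood close together. It was just inside the threshold (log2 fold change 1.59 ± 0.54, FDR 0.0493) and lost its call with limma-voom and without any 1 library but HepKO replicate 3 (FDR 0.0538 to 0.207). Cxcl5 had 2 counts in WT and 6, 18 and 17 counts in HepKO, a ratio of 14.4 (95% counting interval 3.73 to 123). Their receptors were barely counted. Cxcr2 had 7, 7 and 0 counts in WT and 25, 2 and 45 in HepKO, and Cxcr1 had 10 counts in WT and 4 in HepKO, neither tested under the filter.

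The membrane-anchored ligands Cxcl16 and Cx3cl1 both rose. Cxcl16, which also serves as a scavenger receptor on macrophages, had the smallest FDR of the family, with 5, 5.99 and 5.8 CPM in WT and 23.5, 23.4 and 27.6 CPM in HepKO (log2 fold change 2.15 ± 0.13, FDR 8.97e-05). The libraries within each group were nearly level. Its receptor Cxcr6 was not called (0.424 ± 0.314 CPM in WT and 0.884 ± 0.548 CPM in HepKO, log2 fold change 1.08 ± 0.74, FDR 0.29). Cx3cl1, fractalkine, had 1.42, 1 and 0.673 CPM in WT against 4.72, 7.96 and 6.96 CPM in HepKO (log2 fold change 2.67 ± 0.34, FDR 9.43e-04). Its receptor Cx3cr1, carried by patrolling monocytes and macrophages, had 1.42, 1.31 and 0.732 CPM in WT against 8.13, 14.1 and 11.1 CPM in HepKO. That was the receptor with the highest fold (9.63-fold, log2 fold change 3.27 ± 0.32, FDR 3.41e-04), and its log2 fold change stayed between 3.05 and 3.44 when any 1 library was left out. Ligand and receptor were both highest in HepKO replicate 2. Exons of Cxcl16, Cxcl10 and Cx3cr1 overlap a gene on the opposite strand (Zmynd15, Art3 and Gm33858), and reads of such pairs could not be told apart here because the sources used here do not give the strand setting of the counting. The same limit holds for Ccl25, Ccl27a, Xcl1, Ccr9, Cxcr5 and Ackr4, described below. Ccr9 also overlaps Gm17200 on the same strand.

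Cxcl12 was the member called lower under TMM scaling, a call not made under library totals. Cxcl12 (ENSMUSG00000061353.11, chromosome 6, 117168535 to 117181367, plus strand), the ligand of CXCR4 and ACKR3, had 331, 272 and 318 CPM in WT against 190, 213 and 193 CPM in HepKO. The groups did not overlap (log2 fold change -0.63 ± 0.11, FDR 0.00366). Under library totals the log2 fold change was -0.11 and the call was lost (FDR 0.391). Markers of endothelium, a known source of this ligand, gave summed levels of 163 to 208 CPM in WT and 190 to 241 CPM in HepKO over 8 genes. Stellate markers gave 217 to 315 CPM in WT and 507 to 580 CPM in HepKO, with Col3a1 a large part of the rise. Hepatocyte markers gave 112521 to 133333 CPM in WT and 43616 to 55126 CPM in HepKO. The part of these cell types in the result for Cxcl12 was not tested. Its receptor Cxcr4 was above WT in all HepKO libraries (0.135, 1.98 and 0.907 CPM in WT and 3.98, 2.96 and 3.46 CPM in HepKO) without being called (log2 fold change 1.76 ± 0.68, FDR 0.0739). Cxcr4 was called with DESeq2, limma-voom, no filter and library totals, and without WT replicate 2 (log2 fold change 2.72, FDR 0.0221). Ackr3, the scavenger of this ligand, was not called (0.475 ± 0.107 CPM in WT and 1.20 ± 0.587 CPM in HepKO, log2 fold change 1.33 ± 0.49, FDR 0.0661), and it was called with DESeq2 (FDR 0.0463), under library totals (FDR 0.0161) and without HepKO replicate 3 (FDR 0.0421).

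**Figure D3:**
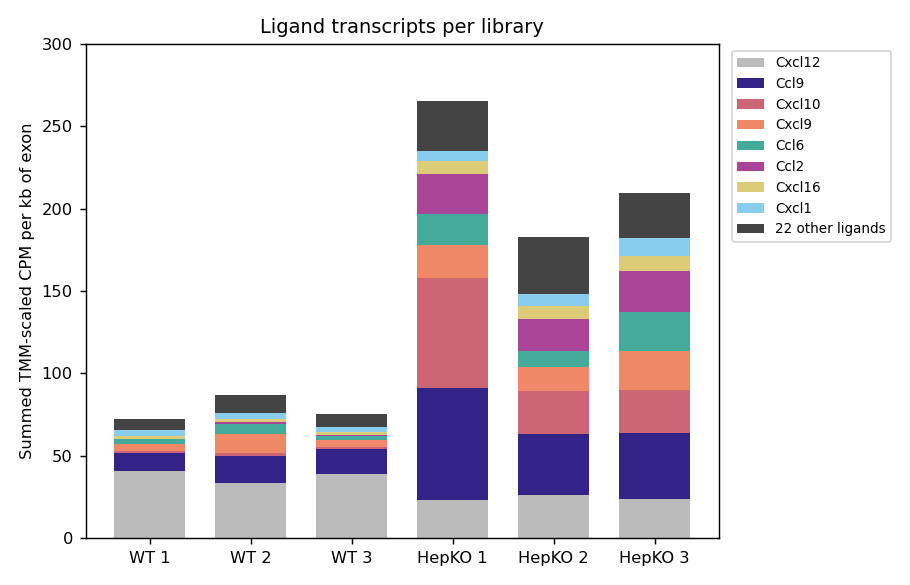
Summed level of the 30 ligands in each library (TMM-scaled CPM per kb of exon), stacked by gene, with 22 ligands pooled in black. The sum is 72.5 to 86.6 in WT and 183 to 265 in HepKO, and the grey Cxcl12 share goes from 38.4% to 55.8% in WT to 8.78% to 14.2% in HepKO.

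Per length, the order of the ligands differed between the groups. Cxcl12 led in WT at 37.5 CPM per kb, followed by Ccl9 at 14.3 CPM per kb and Cxcl9 at 6.53 CPM per kb. In HepKO Ccl9 led at 48.3 CPM per kb, followed by Cxcl10 at 39.6, Cxcl12 at 24.3 and Ccl2 at 23.0 CPM per kb. Cxcl10 moved from the rank of 8 to 2 and Ccl2 from 12 to 4 among 30 ligands. In WT the libraries of Cxcl12 (33.3 to 40.5 CPM per kb) lay apart from those of Ccl9 (10.8 to 16.7 CPM per kb), while Ccl9 overlapped with Cxcl9. In HepKO each of the first 5 ligands overlapped with the next in the order, as Ccl9 (37.1 to 67.7 CPM per kb) did with Cxcl10 (25.7 to 67.1 CPM per kb). Without Cxcl12 the ligand sum was 32 to 53.3 CPM per kb in WT and 157 to 242 CPM per kb in HepKO. The receptor sum was 2.7 to 5.03 CPM per kb in WT and 11.4 to 15.4 CPM per kb in HepKO.

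Cxcl14, Ccl20 and Ccl28 were called higher, with calls that depended on single libraries for Cxcl14 and Ccl28. Cxcl14, an epithelial chemokine without a settled receptor, had 0.473, 1.76 and 0.644 CPM in WT against 1.91, 24.6 and 7.52 CPM in HepKO, the widest HepKO spread for its mean of any called member (log2 fold change 3.54 ± 0.92, FDR 0.0182). HepKO replicate 1 hardly exceeded WT replicate 2. With HepKO replicate 2 left out the value was 2.27 and the call was lost (FDR 0.0564), as it was with limma-voom (FDR 0.212) and without WT replicate 1 (FDR 0.0628) or 3 (FDR 0.069), and without WT replicate 2 it was 4.35. Ccl20, the ligand of CCR6 made by inflamed epithelium, had 0 counts in WT and 17, 47 and 27 counts in HepKO, at least 21.2-fold higher when WT is set to that floor (FDR 0.00606). Ccl28, a mucosal ligand of CCR10 and CCR3, was higher (0.345 ± 0.222 CPM in WT and 1.58 ± 0.521 CPM in HepKO, log2 fold change 2.17 ± 0.56, FDR 0.018), and its call was lost without WT replicate 1 or 3 or HepKO replicate 3 (FDR 0.0511 to 0.0633); without WT replicate 2 its log2 fold change was 2.83. Cxcl14 and Ccl20 were highest in HepKO replicate 2. Cholangiocyte markers, 5 of 7 tested called higher, were highest in the same library, with a summed level of 44 to 62 CPM in WT and 149, 563 and 221 CPM in HepKO replicates 1 to 3. Most of this sum was Spp1, at 35.2 to 54.4 CPM in WT and 134, 515 and 201 CPM in HepKO replicates 1 to 3. The duct keratins Krt19 (FDR 0.236) and Krt7 (FDR 0.598) were not called and overlapped, with their highest values also in HepKO replicate 2. The part of these markers in the results for Cxcl14 and Ccl20 was not tested.

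The remaining ligands were not called or not tested. Ccl25, the thymic and gut ligand of CCR9, had 7.8, 8 and 7.7 CPM in WT against 3.67, 6.46 and 6.33 CPM in HepKO, without overlap and without a call (log2 fold change -0.52 ± 0.23, FDR 0.12). Ccl27a, a skin ligand of CCR10, was similar (log2 fold change -0.46 ± 0.26, FDR 0.198), and under library totals these values were -0.01 and 0.05. Ccl22, a dendritic cell ligand of CCR4 (1.49 ± 0.69, FDR 0.125), Ccl24, the eosinophil ligand eotaxin-2 (0.90 ± 0.43, FDR 0.137) and Cxcl13, the B cell attractant (0.63 ± 0.47, FDR 0.331) were not called. Ccl8, Ccl11, Ccl17 and Xcl1 had 12 to 70 counts over the 6 libraries and were not tested. Ccl8, grouped here with the ligands of CCR3 and CCR8, had 2 counts in WT and 27 in HepKO, a ratio of 9.45 (95% counting interval 2.38 to 82). Ccl11, eotaxin-1, had 1 and 16 counts, a ratio of 11.2 (interval 1.74 to 470). Xcl1, the ligand of XCR1, had 10 and 60 counts, and Ccl17, a partner of Ccl22 at CCR4, had 7 and 5. In a fit with no filter, Ccl12 (FDR 0.0384) and Cxcl5 (FDR 0.0472) were called, and none of the other 10 untested members was.

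Among the remaining receptors Xcr1 was called. Xcr1, a marker of cross-presenting dendritic cells, had 0.0676, 0.279 and 0.439 CPM in WT against 1.17, 0.624 and 1.58 CPM in HepKO (log2 fold change 2.07 ± 0.66, FDR 0.0403). The call was lost with limma-voom and without WT replicate 1 or 2 or HepKO replicate 1 or 3 (FDR 0.052 to 0.125). Ccr3, the eosinophil receptor, had 4 WT counts, all in replicate 1, and 20, 10 and 24 HepKO counts (log2 fold change 3.14 ± 1.11, FDR 0.057). It was called with DESeq2 (FDR 0.0454), limma-voom (FDR 0.0272) and library totals (FDR 0.0253), and without WT replicate 1, where it was at least 8.86-fold higher (FDR 0.0191). Ccr7, which guides dendritic cells and naive T cells to lymph nodes, was not called (2.02 ± 0.99, FDR 0.147), nor was Ccr9 (1.34 ± 0.67, FDR 0.15). Ccr4, Ccr6 and Cxcr5, receptors of T helper and B cell subsets, had 10 to 34 counts in all and were not tested.

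None of the 4 atypical receptors was called with edgeR under TMM, at FDRs of 0.0661 to 0.84. Ackr1, the endothelial and erythroid carrier of chemokines, was above WT in all 3 HepKO libraries (1.14 ± 0.54, FDR 0.135; called under library totals, FDR 0.0348), but its exons overlap Cadm3 on the same strand. Ackr2, a scavenger of inflammatory CC ligands, had 1.40 ± 0.883 CPM in WT libraries and 1.54 ± 0.663 CPM in HepKO (log2 fold change 0.16 ± 0.52, FDR 0.84). Ackr4, a scavenger of the ligands of CCR7 and CCR9, had 0.988 ± 0.691 CPM in WT libraries and 0.752 ± 0.344 CPM in HepKO (log2 fold change -0.38 ± 0.63, FDR 0.676; 0.14 under library totals). The standard errors of the 4 genes were 0.49 to 0.63, so the values do not show that the scavengers stayed level.

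Many members lie in a few gene clusters. All 5 members of the cluster on chromosome 11 from 83525778 to 83664683 (Ccl5, Ccl9, Ccl6, Ccl3 and Ccl4) were called higher, with log2 fold changes of 1.76 to 3.56. In the neighbouring cluster from 82035571 to 82305690 both tested members, Ccl2 and Ccl7, rose. On chromosome 5, 3 of 4 tested members between 90759360 and 90905938 rose, all but Ppbp, and so did Cxcl9 and Cxcl10 between 92321347 and 92348889. In the receptor cluster on chromosome 9, Xcr1, Ccr1 and Ccr2 rose, while Ccr9, Cxcr6 and Ccr3 were not called and Ccr1l1 was not tested. Of all genes tested, 19.5% were called higher. Positions are on GRCm38 (mm10).

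Just inside the count minimum lay Ccr6 with 10 counts, and just outside it Cxcl3 with 5 counts and Ccr10 with 4. Ccl19, Ccl21a and Ccl21b, ligands of CCR7, had 0 to 2 counts per annotated copy. These genes have near-identical copies between which reads can be split or dropped, so the counts are not read as absence.

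The summed levels of several leukocyte marker lists were higher in HepKO as well. The share called higher was 19.5% over all genes tested. The T and NK cell list and the B cell list below stayed under that share. Of 12 macrophage markers 11 were tested and 10 called higher, with a summed level of 179 to 319 CPM in WT and 544 to 832 CPM in HepKO. Resident Kupffer cell markers summed to 382 to 510 CPM in WT and 553 to 920 CPM in HepKO, with 6 of 8 called higher. Neutrophil markers were near the detection limit, with 1.73 to 5.18 CPM in WT and 7.71 to 22.7 CPM in HepKO over 10 genes, 4 of 4 tested called higher. The monocyte markers were split: Vcan, Plac8, Chil3, Ly6c2 and Itgam were among those that rose, while F10 and Fn1, which hepatocytes also make in quantity, fell. T and NK cell markers gave 4.19 to 8.66 CPM in WT and 11.2 to 18 CPM in HepKO, with 2 of 12 tested called higher (Cd8a and Cd3g). Dendritic cell markers gave 11.3 to 17.9 CPM in WT and 28.7 to 39.2 CPM in HepKO, with 4 of 8 called higher. B cell markers overlapped between the groups, at 7.2 to 9.09 CPM in WT and 8.6 to 17.6 CPM in HepKO, as did the list of eosinophil, basophil and mast cell markers, at 3.65 to 6.55 CPM and 6.42 to 8.54 CPM, with Fcer1a at 0. In these lists 1 of 8 tested (Cd22, log2 fold change 1.99, FDR 0.0118) and 1 of 2 tested (Siglecf, 2.85, FDR 0.0472) were called higher. Stellate markers gave 217 to 315 CPM in WT and 507 to 580 CPM in HepKO, with 3 of 8 called higher (Col3a1, Col1a1 and Pdgfrb). Lrat, Des, Reln, Acta2 and Dcn overlapped and were not called. Col3a1 had a mean of 29.5 CPM in WT and 172 CPM in HepKO, a large part of the rise in the sum. Erythroid markers gave 188 to 274 CPM in WT and 101 to 132 CPM in HepKO, with 3 of 5 called lower. WT replicate 2 had the highest macrophage sum of its group. It was the highest WT library for 10 of the 17 ligands called higher and for 24 of all 51 members. HepKO replicate 1 had the highest macrophage sum of its group. It was the highest HepKO library for 6 of these 17 ligands and 0 of the 5 receptors called higher, against 8 and 4 for HepKO replicate 3. The part of cell numbers in the members' rise was not tested.

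**Figure D4:**
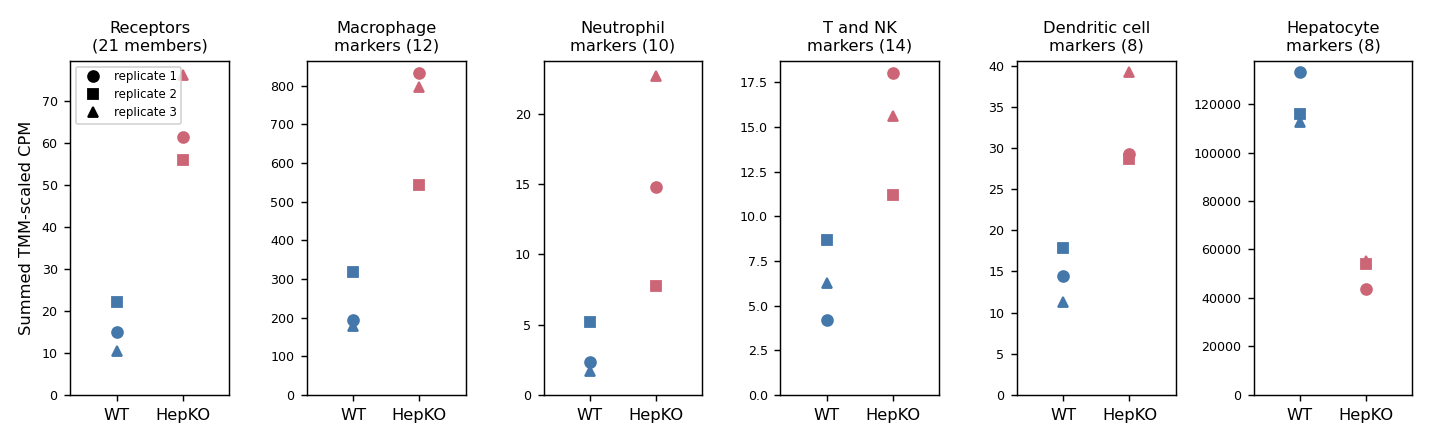
Summed TMM-scaled CPM (vertical axes, each from 0) of the 21 receptor members and of 5 marker lists in each library, WT in blue and HepKO in red, with the shape giving the replicate. The 3 HepKO points lie above the 3 WT points for receptors (56 to 76.2 against 10.4 to 22 CPM) and for the 4 leukocyte lists, and below them for hepatocyte markers.

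Genes that act around the chemokines were read from 3 further lists. Of 38 tested signalling genes below the receptors, 24 were called higher and 1 lower (median log2 fold change 1.18). The 3 with the smallest p were Arrb2, the beta-arrestin that ends receptor signalling (1.14 ± 0.12, FDR 5.10e-04), the G protein subunit Gnb1 (0.87 ± 0.10, FDR 5.44e-04) and the exchange factor Vav1 of leukocytes (1.71 ± 0.19, FDR 5.54e-04). Among 22 tested genes of chemokine cleavage, presentation and related receptors, 9 were higher and 5 lower (median 0.24). Dpp4, the peptidase that inactivates CXCL10 and CXCL12 by trimming their start, fell from 172 ± 4.46 CPM to 75.1 ± 4.62 CPM (-1.20 ± 0.09, FDR 1.49e-04). The heparan sulfate carrier Gpc3 rose (5.03 ± 0.41, FDR 1.80e-04), and the heparan sulfate enzyme Hs6st1 fell (-0.98 ± 0.12, FDR 8.80e-04). Of 20 tested inducers of chemokine genes, 12 were higher and 1 lower (median 0.84), led by the interferon factor Irf7 (2.09 ± 0.16, FDR 1.41e-04), the NF-kB subunit Nfkb2 (1.39 ± 0.17, FDR 8.91e-04) and Irf1 (1.39 ± 0.18, FDR 9.73e-04). These shares stand beside 38.2% of all genes called. Under library totals the cleavage list had 15 higher and 2 lower.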

How the data were processed

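Poly(A) RNA of mouse liver was made into 3 WT and 3 HepKO libraries with a stranded kit, per the labels' protocols. The authors deposited raw counts per gene. Per the submitters' processing notes, STAR 2.7.11a, featureCounts of Subread 2.0.0, edgeR 3.40.2 and the mm10 build were used. The sources used here do not give the strand setting or the annotation release. Of 56350 gene IDs, 55480 matched GENCODE M21, which gave names and exon lengths.

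Counts were filtered with filterByExpr by group (16051 genes), scaled by TMM and tested in R 4.3.3 with edgeR 4.0.16 (quasi-likelihood, 2-sided, Benjamini-Hochberg FDR under 0.05 over all genes tested). SE is the log2 fold change divided by the root of F. The code was tested on simulated data. DESeq2 1.42.0, limma-voom 3.58.1, other scalings and filters, a replicate block, and fits without each library were alternatives.

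Values per library were given for called members of at least 1 CPM and for all members of at least 5 CPM; of each pathway list the 3 genes with the smallest p were named. The examples of markers and the members near the detection limit were named after their values were seen. The members and lists were chosen with earlier results of these data known. A receptor and a marker gene enter the counts and sums but are not reported here.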

Additional observations from a re-analysis of the deposited data

How the results depend on the processing

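All 17 ligands and 5 receptors called higher kept that direction under all 14 alternatives run in which they were tested. Of these 22 members, 15 kept the call under all alternatives they were tested in but the FDR limit of 0.01, where 14 were called (Ccl20 was not tested with the filter of 1 CPM). At that limit 10 ligands were called higher, against 17, and 3444 of all genes were called in either direction, against 6131. Receptors called higher were 5 with edgeR and TMM, 10 under library totals and 8 with DESeq2. Of all genes, 3125, 7442 and 3471 were called higher in these fits. Among members reaching the filter level in all WT libraries, an alternative chosen after seeing the data, 10 ligands and 3 receptors were called higher. When each library was left out in turn, 12 to 16 ligands and 4 to 5 receptors were called higher, and 43 to 49 pathway genes and 4392 to 5587 of all genes in either direction. With a log2 fold change of at least 1 required, 2985 of all genes and 34 pathway genes, against 52, were called in either direction. Values that changed sign belonged to members that were not called: with 1 library left out, Ackr2 ranged from -0.26 (HepKO replicate 1; -0.12 for WT replicate 3) to 0.78, Ackr4 from -0.71 to 0.32 (WT replicate 1) and Ppbp from -0.14 (WT replicate 1) to 0.91. Under library totals Ackr4 was 0.14 and Ccl27a 0.05. With the replicate number as a block, 14 ligands and 4 receptors were called higher, and 47 pathway genes and 5071 of all genes in either direction; Ccl3 (FDR 0.0701), Ccl5 (0.0508), Cxcl2 (0.0539) and Xcr1 (0.0674) lost the call. The block rests on numbers only, since deviations of same-numbered libraries correlated at -0.125, -0.068 and 0.002. Depth limits the members under about 1 CPM, whose WT values rest on few counts.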
